A study of Mus musculus with 8 samples.

Results

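Immediate early genes and feedback inhibitors of the ERK kinase pathway were examined in cultured astrocytes that lack osteopontin, the secreted phosphoprotein encoded by Spp1. The genes were chosen by name. They were the AP-1 subunits Fos, Fosb, Fosl1, Fosl2, Jun, Junb, Jund and Atf3, and the Egr factors Egr1, Egr3 and Egr4. Also chosen were the Nr4a, small Maf and Klf factors, the Ets factors Etv1, Etv4 and Etv5, Myc and Srf. The Ier genes, the Dusp phosphatases, the Sprouty and Spred inhibitors, Errfi1, Phlda1 and the Zfp36 family completed the rule. The rule matched 20 of the 3624 genes in the authors' deposited table, and 79 protein-coding genes of the mouse annotation carry such a name. Astrocytes came from the retinas and optic nerves of mice aged 1 to 3 days after birth, 4 samples from Spp1-/- mice of the strain B6.129S6(Cg)-Spp1tm1Blh/J and 4 from C57BL/6 wild-type mice. Both were grown in DMEM/F12 with 10% fetal bovine serum, and serum is itself a known inducer of immediate early genes. Nothing in the labels ties each sample to its own culture or litter, so the p-values cover the spread among these 8 samples, and that spread may be technical.

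Immediate early genes are transcribed within minutes of a growth factor, serum or stress signal, without new protein synthesis. Many are switched on by the kinase cascade of Ras, Raf, MEK and ERK, which activates Ets and serum response factors at their promoters, and their products, such as AP-1, drive a later wave of transcription. The same cascade induces its own brakes: Sprouty proteins act between receptor and Raf, and dual-specificity phosphatases remove phosphate from ERK, JNK and p38. In astrocytes, ERK and AP-1 activity is known to increase with injury and with growth factor treatment.

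The authors' deposited table is their comparison of the genotypes, filtered so that the largest adjusted p is 0.0499 and the smallest fold change, up or down, is 0.58 on the log2 scale. It has no values per sample. The direction, Spp1 KO over WT, was read from Spp1 itself, which had an implied mean normalized count of 441 in Spp1 KO and 26271 in WT; Spp1 therefore cannot also test that direction. Implied means were worked out from each gene's mean over all samples and its fold change in the authors' deposited table, and carry no spread over samples. In the same table, Gfap, the astrocyte intermediate filament gene, had implied means of 91923 in Spp1 KO and 58315 in WT, and Aqp4, the astrocyte water channel gene, 34520 in Spp1 KO and 15585 in WT. Of 16 astrocyte markers, 5 were higher (Gfap, Aqp4, Gjb6, Aldoc and Ndrg2) and 3 were lower (S100b, Fabp7 and Pax2). S100b had implied means of 259 in Spp1 KO and 913 in WT, and Fabp7 3836 in Spp1 KO and 9011 in WT. The Y-linked genes Ddx3y and Uty had implied means of 1605 and 457 in Spp1 KO, against 0.16 and 7.12 in WT. The labels give no sex, and sex, strain background and genotype cannot be told apart for any value here.

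Listed immediate early and feedback genes were mostly lower in Spp1 KO cultures. Of the 20 genes, 16 fell and 4 rose in the authors' deposited table, or 80% lower, where 45.1% of all genes in that table were lower and 54.9% higher. Their median log2 fold change was -1.08, against a median of 0.66 over all 3624 genes of the authors' deposited table. That table holds no change smaller than 0.58 in either direction, so its median mostly shows which direction has more genes. It does not measure a shift of all tested genes. In size the changes of the 20 genes were close to those of the table as a whole. A log2 change of 1 or more in either direction was seen for 60% of the 20 genes and 58.0% of all genes. All 7 listed MAP kinase phosphatases and Sprouty proteins fell, and so did 8 of the 10 listed transcription factors. The exceptions were Nr4a3, Dusp18, Atf3 and Zfp36l1, which rose. The list was described by these counts and medians without a test, because its genes are co-regulated and are not replicates.

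**Figure D1:**
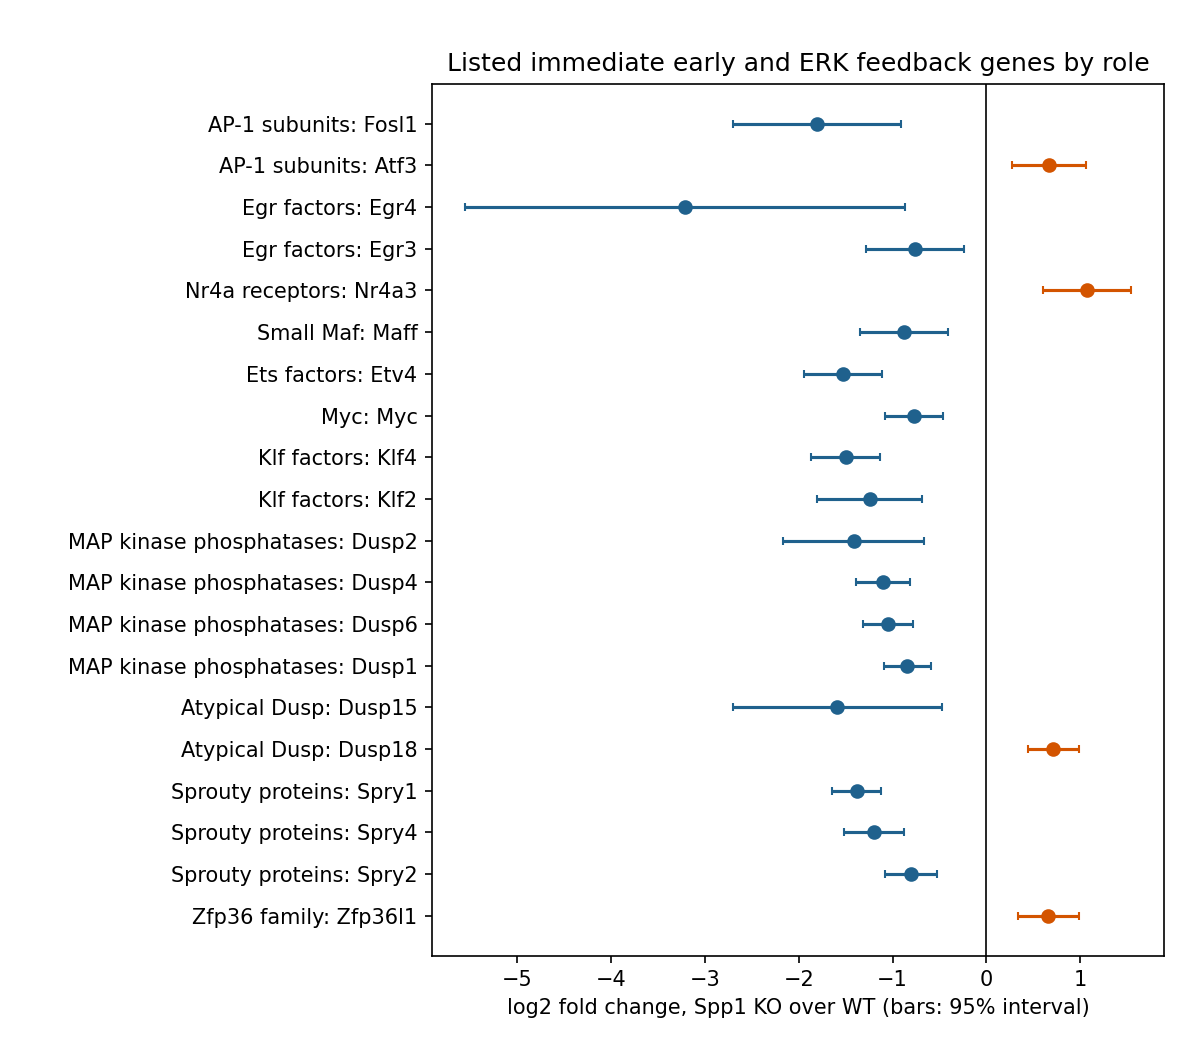
Log2 fold change of Spp1 KO over WT for the 20 listed genes, grouped by role, with the 95% interval from the deposited standard error as bars. The 16 lower genes lie between -3.21 and -0.76 and the 4 higher genes between 0.66 and 1.07.

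The 20 genes make up 25.3% of the 79 with such a name, while 16.1% of all 21924 protein-coding gene names in the annotation are in the authors' deposited table. The annotation counts genes whether or not astrocytes express them, so these shares are no rate of change among expressed genes. The other 59 are not in the table as analysed here, among them Fos, Fosb, Jun, Junb, Egr1, Ier2, Ier3, Nr4a1, Dusp5, Etv5, Errfi1, Phlda1 and Zfp36. A gene outside the table can be one that missed a limit of the table or one that was never tested, and nothing was read from its absence.

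**Figure D2:**
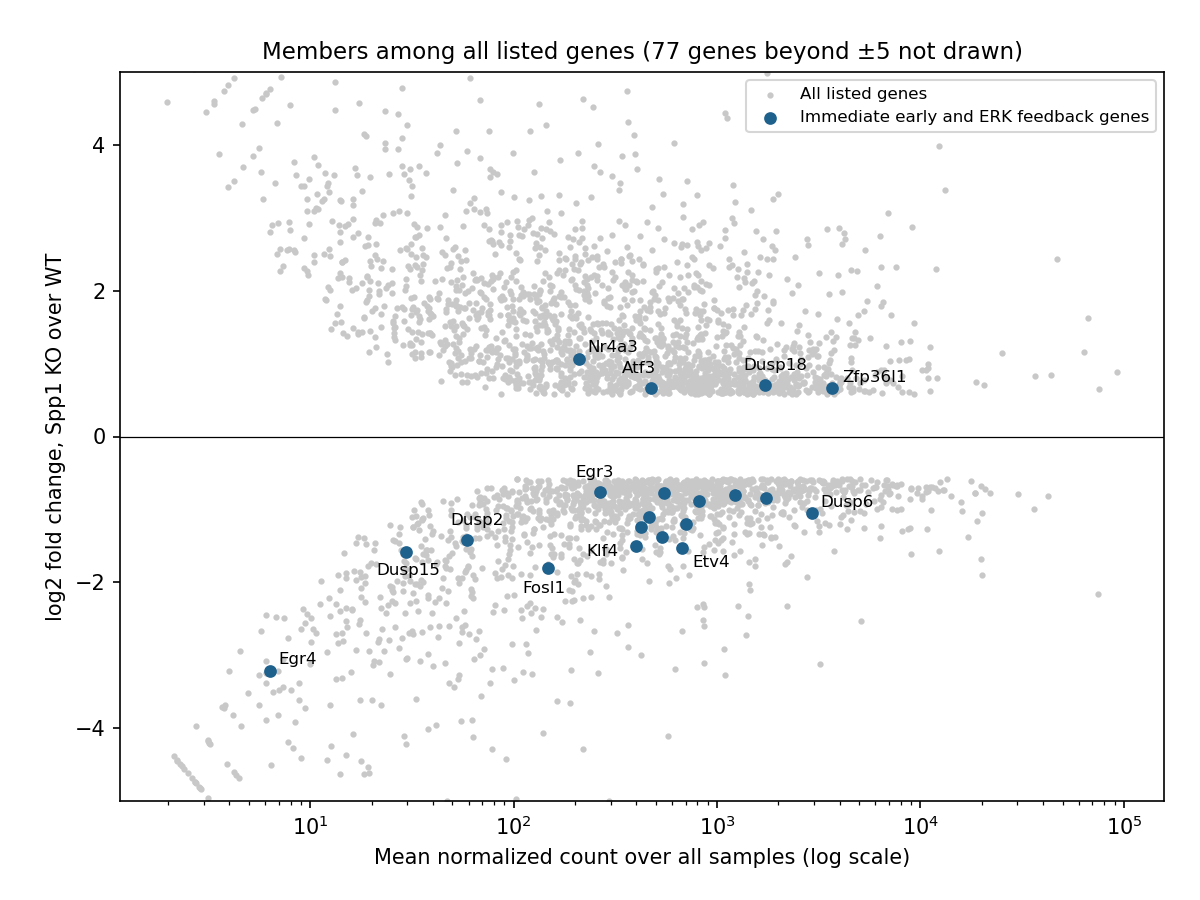
Log2 fold change of Spp1 KO over WT against the mean normalized count over all samples, on a log scale, for all 3624 genes of the authors' deposited table in grey and the 20 genes in blue, some of them named. The empty band around 0 is the authors' fold-change limit, and 77 genes beyond 5 in either direction are not drawn. Most of the 20 lie below that band at moderate to high means, and Egr4 lies at the low end.

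Promoter sequences show which response elements lie at the starts of these genes. Of the 20 genes, 13 had entries in the RefSeq promoter table of GRCm38.p6, with 15 windows of 300 bases, from 250 before to 50 after the start; Dusp15, Dusp4, Egr3, Etv4, Fosl1, Myc and Spry4 had none. On both strands, 6 motifs were searched: the CArG box bound by serum response factor, the AP-1 site TGANTCA, the cyclic AMP response element TGACGTCA, its core TGACG, which lies within the full element, the Egr site GCGNGGGCG and the Ets site CCGGAAG. The core was found in 9 of the 15 windows (60%), against 22.8% of the 3567 windows of all listed genes and 20.8% of all 32851 promoter windows. The full element was found in 2 windows (13.3%, against 1.91% for listed genes and 1.79% of all) and the Egr site in 4 (26.7%, against 9.22% for listed genes and 5.55% of all), all of them in genes that fell. Among the 11 windows of the lower members the shares were 63.6% for the core, 18.2% for the full element and 36.4% for the Egr site, against 24.3%, 2.37% and 10.9% for all listed lower genes. The 15 windows had a median GC content of 64.3%, against 58.3% for listed genes and 52.7% for all windows; GC content moved with these shares and its part in them was not tested. The AP-1 site was in 1 window (6.67%, against 7.81%), that of Zfp36l1, while the CArG box and the Ets site were in 0 of 15, against 1.63% and 8.86% of all windows. The lack of a match says only that these letters are not in these windows.

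The 250 bases before the start are shown for 5 genes, 4 that fell and Nr4a3, which rose, because these hold both full elements and examples of the Egr site and of the core; they run 5′ to 3′ on the strand of the gene, with the matched motifs in capitals. The window of Dusp1 (chr17:26508473-26508722, minus strand) has the full cyclic AMP response element starting 143 bases before the start and a separate core at 191.
Dusp1: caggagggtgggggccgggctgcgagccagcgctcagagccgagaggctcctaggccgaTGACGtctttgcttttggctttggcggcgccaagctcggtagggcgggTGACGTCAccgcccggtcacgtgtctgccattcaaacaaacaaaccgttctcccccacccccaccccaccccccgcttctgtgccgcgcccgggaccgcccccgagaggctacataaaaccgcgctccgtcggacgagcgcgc
Of the 3 windows of Maff, the one at chr15:79347270-79347519 on the plus strand has the full element starting 29 bases before the start and an Egr site at 88.
Maff: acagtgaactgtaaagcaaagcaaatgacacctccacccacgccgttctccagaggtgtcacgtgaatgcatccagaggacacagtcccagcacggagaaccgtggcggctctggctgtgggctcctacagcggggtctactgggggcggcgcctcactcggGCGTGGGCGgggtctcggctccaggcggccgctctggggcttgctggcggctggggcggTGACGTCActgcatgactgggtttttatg
Klf4 (chr4:55532476-55532725, minus strand) has Egr sites starting 211 and 194 bases before the start and a core at 232.
Klf4: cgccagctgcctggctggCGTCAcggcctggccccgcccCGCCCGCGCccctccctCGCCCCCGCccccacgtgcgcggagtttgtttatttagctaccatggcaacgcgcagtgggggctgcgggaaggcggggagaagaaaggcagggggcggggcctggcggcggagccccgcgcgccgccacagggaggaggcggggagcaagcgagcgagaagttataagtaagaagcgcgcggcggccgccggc
Egr4 (chr6:85513590-85513839, minus strand) has cores starting 177 and 109 bases before the start.
Egr4: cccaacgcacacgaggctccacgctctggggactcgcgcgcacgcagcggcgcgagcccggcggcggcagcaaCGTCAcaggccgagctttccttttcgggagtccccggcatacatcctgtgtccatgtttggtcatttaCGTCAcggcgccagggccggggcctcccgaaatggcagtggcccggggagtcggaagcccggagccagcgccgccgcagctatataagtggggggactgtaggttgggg
Nr4a3 (chr4:48045055-48045304, plus strand) has 4 cores and no full element.
Nr4a3: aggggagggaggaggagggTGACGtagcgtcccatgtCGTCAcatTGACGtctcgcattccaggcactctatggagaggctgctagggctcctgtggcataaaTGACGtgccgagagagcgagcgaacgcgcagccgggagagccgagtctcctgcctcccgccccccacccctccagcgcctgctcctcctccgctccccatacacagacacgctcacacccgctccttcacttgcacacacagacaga
These matches are a description of sequence. A core was present both in genes that fell and in genes that rose: 7 of 11 windows of the lower genes and 2 of 4 windows of the higher genes had one.

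Among the AP-1 genes, Fosl1 and Atf3 moved in opposite directions. Fosl1 encodes Fra-1, a Fos-family partner of Jun whose gene is itself a target of ERK and AP-1, and it had an implied mean normalized count of 65.5 in Spp1 KO and 229 in WT. In the authors' deposited table it fell by 1.81 on the log2 scale (deposited standard error 0.46, adjusted p = 5.58e-04), a 3.50-fold lower level with a 95% interval of 1.88 to 6.51. Atf3 encodes a stress-induced factor that pairs with Jun and often represses, and it had implied means of 584 in Spp1 KO and 368 in WT. The authors' deposited table gave it a rise of 0.67 (0.20, adjusted p = 0.0045), 1.59-fold with an interval of 1.21 to 2.09. The other 6 AP-1 genes of the rule are not in the table.

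Of Egr1, Egr3 and Egr4, the Egr genes of the rule, Egr3 and Egr4 were listed and both fell. Over all protein-coding gene names 16.1% were listed, and 45.1% of listed genes were lower. Egr2 was not part of the rule. Egr3, a zinc finger factor induced by growth factor and neuronal signals, had implied means of 198 in Spp1 KO and 336 in WT. It stood at -0.76 on the log2 scale (deposited standard error 0.27, adjusted p = 0.018) in the authors' deposited table, with an interval of -1.28 to -0.24. Egr4, a related factor best known from neurons, had implied means of 1.24 in Spp1 KO and 11.5 in WT. Its log2 fold change of -3.21 was the most negative of the 20, but its standard error of 1.19 was also the largest, with adjusted p = 0.027 in the authors' deposited table. The interval ran from -5.55 to -0.87, so the size of the fall of Egr4 is known poorly at these low counts.

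Nr4a3, an orphan nuclear receptor gene induced by cyclic AMP and calcium as well as by growth factors, was the gene that rose most. It had implied means of 283 in Spp1 KO and 135 in WT. The authors' deposited table gave a rise of 1.07 on the log2 scale (deposited standard error 0.24, adjusted p = 6.4e-05), a 2.10-fold higher level with an interval of 1.52 to 2.90. Nr4a1 and Nr4a2 are not in the table.

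Etv4, Maff, Myc and the related Klf4 and Klf2 all fell. Etv4 encodes an Ets factor of the Pea3 group, a known readout of FGF signalling through ERK, and had implied means of 347 in Spp1 KO and 1000.2 in WT. In the authors' deposited table it fell by 1.53 (deposited standard error 0.21, adjusted p = 1.29e-11), with an interval of -1.95 to -1.11. Klf4, a zinc finger factor of cell identity and quiescence, had implied means of 209 in Spp1 KO and 592 in WT, and fell by 1.50 (0.19, adjusted p = 3.36e-14) in the authors' deposited table, with an interval of -1.87 to -1.13. The fall of Etv4 and that of Klf4 left the level in Spp1 KO at 34.6% and 35.3% of that in WT.

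Klf2, a related factor known for quiescence of endothelial cells and lymphocytes, had implied means of 252 in Spp1 KO and 596 in WT. It fell by 1.24 (deposited standard error 0.28, adjusted p = 1.06e-04) in the authors' deposited table, with an interval of -1.80 to -0.68. These were the only Klf genes in the table, of 17 in the annotation. Maff, a small Maf protein that pairs with Nrf2 or with itself on antioxidant elements, had implied means of 577 in Spp1 KO and 1061 in WT. The authors' deposited table gave it a fall of 0.88 (0.24, adjusted p = 0.0014), with an interval of -1.34 to -0.41. Myc, a driver of growth and the cell cycle, had implied means of 406 in Spp1 KO and 692 in WT, a fall of 0.77 (0.16, adjusted p = 9.48e-06) with an interval of -1.08 to -0.46 in the authors' deposited table.

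**Figure D3:**
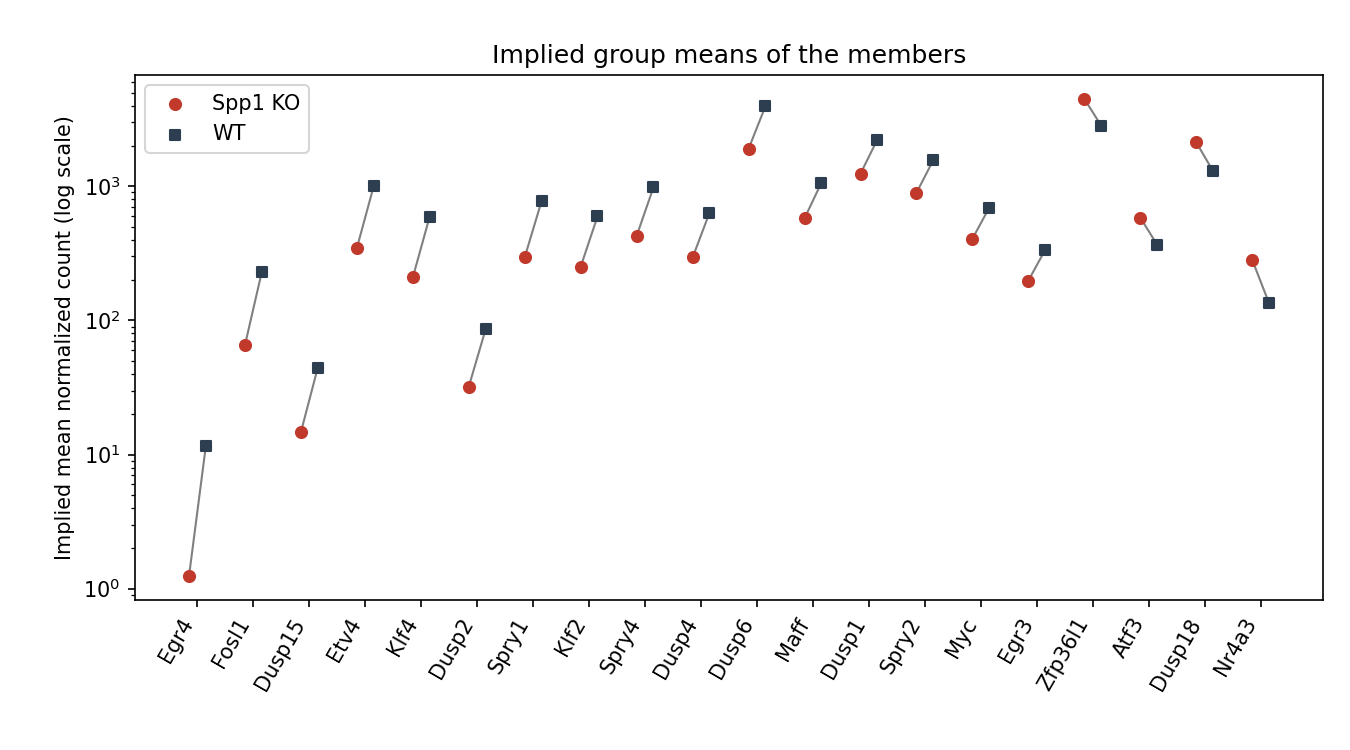
Implied mean normalized counts, on a log scale, for the 20 genes in Spp1 KO (circles) and WT (squares), ordered by log2 fold change; lines join the groups of 1 gene and no spread over samples can be shown. The 16 genes on the left have the lower mean in Spp1 KO, and Zfp36l1, Atf3, Dusp18 and Nr4a3 on the right have the higher.

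The listed phosphatases that act on MAP kinases all fell. Of 10 such genes 4 were listed and all 4 were lower, with log2 fold changes from -1.42 to -0.84 in the authors' deposited table. For scale, 16.1% of all protein-coding gene names were listed and 45.1% of listed genes were lower. Dusp6, a cytosolic phosphatase specific for ERK and a common transcriptional readout of ERK activity, had implied means of 1905 in Spp1 KO and 3944 in WT. It fell by 1.05 (deposited standard error 0.14, adjusted p = 5.41e-13) in the authors' deposited table, a 2.07-fold lower level with an interval of 1.72 to 2.49. Per kilobase of exon, these means were 608 in Spp1 KO and 1259 in WT, the highest per-length WT level of the 20 genes.

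Dusp4, a nuclear phosphatase of ERK and JNK, had implied means of 295 in Spp1 KO and 632 in WT, and fell by 1.10 (deposited standard error 0.15, adjusted p = 1.48e-12) in the authors' deposited table, with an interval of -1.39 to -0.81. Dusp1, a nuclear phosphatase of p38, JNK and ERK that is induced by stress and glucocorticoids, had implied means of 1242 in Spp1 KO and 2226 in WT. It fell by 0.84 (0.13, adjusted p = 5.76e-10) in the authors' deposited table, with an interval of -1.09 to -0.59. Dusp2, an inducible nuclear phosphatase best known from immune cells, had implied means of 32.1 in Spp1 KO and 85.6 in WT. Its fall of 1.42 (0.38, adjusted p = 0.0014) in the authors' deposited table had an interval of -2.17 to -0.66, which spans the intervals of Dusp4 and Dusp6.

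The 2 listed atypical Dusp phosphatases, which lack the MAP kinase-binding domain, moved in opposite directions. Dusp15, a phosphatase known from oligodendrocyte differentiation, had implied means of 14.7 in Spp1 KO and 44.2 in WT, and fell by 1.59 (deposited standard error 0.57, adjusted p = 0.021) in the authors' deposited table, with an interval of -2.70 to -0.47. Markers of the oligodendrocyte lineage fell beside it, with 12 lower and 2 higher of 16 genes, where 45.1% of all listed genes were lower. The part of these cells in the Dusp15 value was not tested. Dusp18 had implied means of 2127 in Spp1 KO and 1300 in WT, and rose by 0.71 (0.14, adjusted p = 3.84e-06) in the authors' deposited table, with an interval of 0.44 to 0.98.

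Of the Sprouty genes, whose proteins restrain receptor signalling to Ras and Raf, Spry1, Spry2 and Spry4 all fell. Beside them, 16.1% of all protein-coding gene names were listed and 45.1% of listed genes were lower. Spry1 had implied means of 296 in Spp1 KO and 774 in WT. In the authors' deposited table it fell by 1.38 (deposited standard error 0.14, adjusted p = 9.95e-23), the smallest adjusted p of the 20 genes, and its level was 2.61-fold lower with an interval of 2.17 to 3.14. Spry4 had implied means of 428 in Spp1 KO and 982 in WT, and fell by 1.20 (0.16, adjusted p = 6.46e-12) in the authors' deposited table, with an interval of -1.52 to -0.88. Spry2 had implied means of 894 in Spp1 KO and 1565 in WT, and fell by 0.81 (0.14, adjusted p = 1.34e-07) in the authors' deposited table, with an interval of -1.08 to -0.53. The interval of Spry2 did not reach that of Spry1, though no test of a difference between genes could be made from the table. The Spred genes are not in it.

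Zfp36l1 encodes a protein that binds AU-rich elements and speeds the decay of messenger RNAs, many of them from early response genes. It had implied means of 4487 in Spp1 KO and 2839 in WT. The authors' deposited table gave it a rise of 0.66 (deposited standard error 0.17, adjusted p = 5e-04), 1.58-fold with an interval of 1.26 to 1.98. It had the highest per-length level of the 20 genes in Spp1 KO, at 1501 per kilobase of exon in Spp1 KO and 950 in WT.

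The precision differed between the genes. For 11 of the 16 lower genes and 1 of the 4 higher genes, Nr4a3, the whole interval lay beyond the smallest absolute log2 fold change of the authors' deposited table, 0.58. The intervals of the other 8 genes reached into the range that the table leaves out. Zfp36l1 and Atf3 were nearest to that limit.

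Most of the 20 genes were short, a feature that the name rule did not use. Their median span was 5735 bases against 25630 for all listed genes with an annotation, and 17 of 20 lay below the median of all listed genes, the exceptions being Dusp1, Atf3 and Nr4a3. Their merged exons had a median of 2948 bases in 4 blocks, against 4238 bases in 9 blocks, with 15 of 20 below the median of all listed genes. They lay on 14 chromosomes and 0 of them on chromosome 5, which carries Spp1 and 222 of the listed genes. Their median mean normalized count in the authors' deposited table was 505, against 341 for all listed genes, and 14 of 20 lay above that of all listed genes.

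Listed genes of the EGF, FGF and PDGF families, most of which encode secreted ligands upstream of ERK, were lower in the same table. Of 37 such genes 13 were listed and all 13 fell, their median being -1.42 on the log2 scale, where 16.1% of all protein-coding gene names were listed and 45.1% of listed genes were lower. Without Fgf11 to Fgf14, which are not secreted ligands, 11 of 33 were listed and all 11 fell, with a median of -1.49. Hbegf, an EGF receptor ligand that ERK also induces, fell by 1.40 (deposited standard error 0.12) in the authors' deposited table. Btc, Nrg1, Tgfa, Areg and Ereg, further ligands of the EGF receptor family, had log2 fold changes of -3.08, -0.83, -0.65, -2.83 and -0.87 there. Their deposited standard errors were 0.66, 0.20, 0.16, 0.93 and 0.30. Btc and Areg, with the largest falls, had low implied means of 7.30 and 2.48 in Spp1 KO, against 61.9 and 17.6 in WT. Fgf1, a secreted ligand of all FGF receptors, fell by 1.49 (0.13) and Pdgfa, a ligand of the PDGF alpha receptor, fell by 0.75 (0.08) as the authors' deposited table gives them. Fgf12 and Fgf13, at -1.42 (0.14) and -1.16 (0.20) in the authors' deposited table, encode homologous factors that stay inside the cell and bind sodium channels. Of the listed genes of these families, Btc, Areg, Ereg, Fgf5 and Pdgfa lie on chromosome 5, which carries Spp1. The part of that position in their values was not tested.

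Receptors and intracellular components were listed in both directions. For scale, 16.1% of all protein-coding gene names were listed, and 54.9% of all listed genes were higher and 45.1% lower. Of 19 receptor tyrosine kinase genes, 4 rose and 2 fell in the authors' deposited table. Kit and Csf1r, receptors of mast and macrophage lineage cells among others, rose by 4.01 (deposited standard error 0.28) and 2.76 (0.20) there, and Ret and Erbb3, receptors of neural crest derivatives, fell by 3.19 (0.17) and 2.24 (0.23). Of 27 adaptors, Ras exchange factors and Ras GTPase activators, 5 were higher and 3 lower in the authors' deposited table. Rasgrp3 and Rasal3 rose by 1.85 (0.24) and 1.85 (0.26), Rasa3 fell by 0.73 (0.10) and Shc3 fell by 0.82 (0.14), in the authors' deposited table. Of 15 Ras, Raf, MEK and ERK genes, Hras was the 1 listed, at -0.74 (0.15) in the authors' deposited table. Of 18 kinases and factors downstream of ERK, the kinase gene Rps6ka1 (0.64, 0.15) and the Ets factor gene Elk4 (0.86, 0.31) were listed, both higher, in the authors' deposited table. The JNK and p38 list had 3 higher and 1 lower of 18 genes: Map3k5, Map3k1 and Map3k8 at 1.15, 0.87 and 0.74, and Mapk11 at -0.60, in the authors' deposited table.

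**Figure D4:**
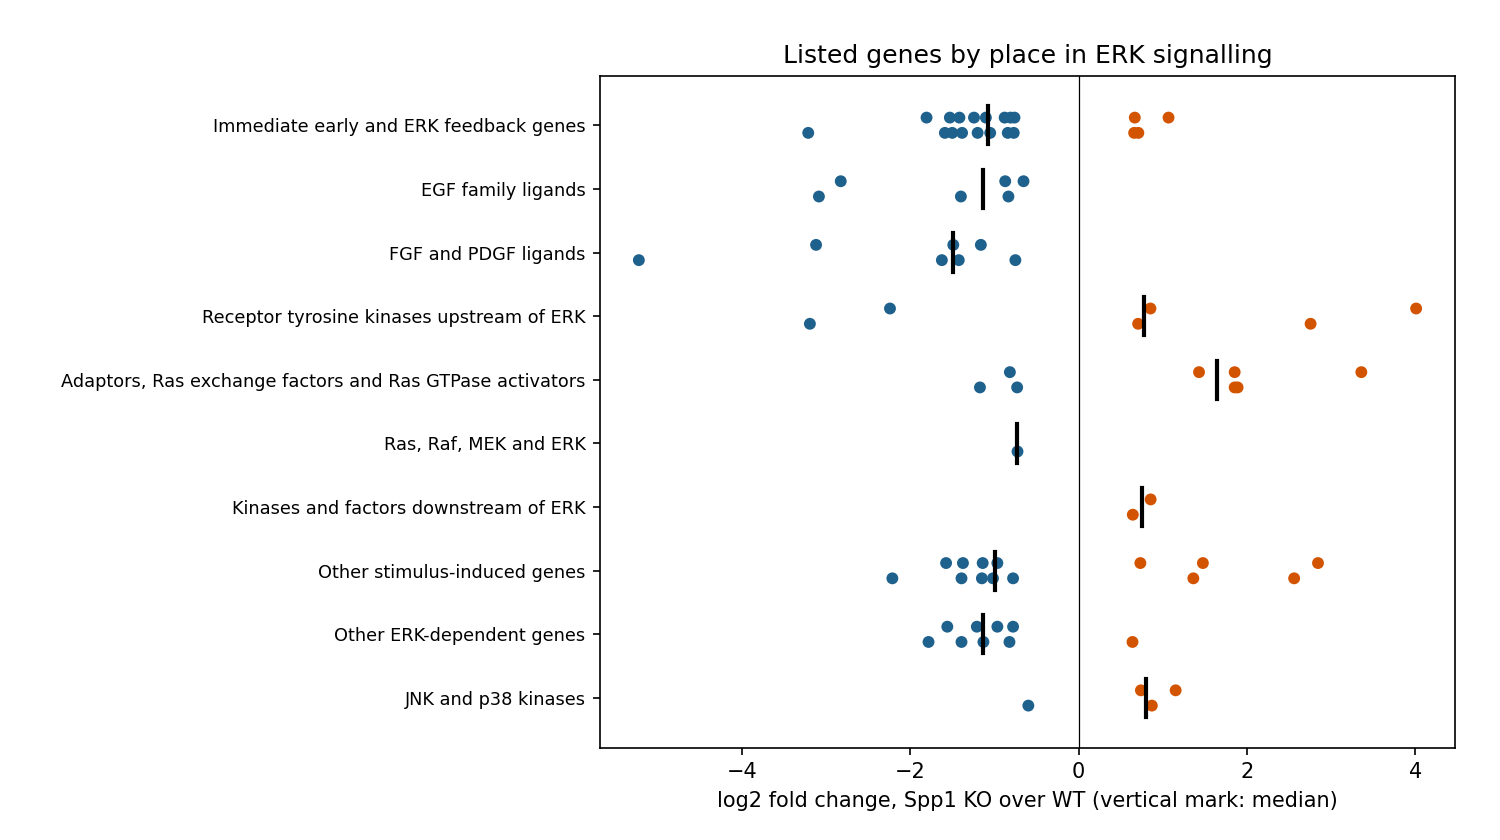
Log2 fold changes of Spp1 KO over WT for the 20 genes and for listed genes of 9 lists around ERK signalling, without the 20; each point is a gene, blue lower and orange higher, and the vertical mark is the median. All listed EGF, FGF and PDGF family genes lie below 0, and receptors and signalling components lie on both sides.

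Other genes known to respond to ERK were mostly lower among those listed. Of 12 such genes, 8 fell and 1 rose in the authors' deposited table, with a median of -1.13, where 16.1% of all protein-coding gene names were listed and 45.1% of listed genes were lower. Ccnd1, the cyclin that couples ERK activity to cell cycle entry, fell by 0.82 (deposited standard error 0.10), Hmga2, a chromatin protein, by 1.78 (0.24), and Epha2, an ephrin receptor, by 1.13 (0.18), per the authors' deposited table. Bcl2l11 was higher by 0.64 (0.15) in the authors' deposited table; it encodes the pro-apoptotic protein Bim, which ERK is known to restrain. Of 35 other stimulus-induced genes, 9 fell and 5 rose in the authors' deposited table, with a median of -0.99, and 3 of them, Lif, Plaur and Vgf, are on both lists. Ccn2, Thbs1 and Ccn1, matricellular genes that also respond to serum response factor and YAP, fell by 1.57 (0.11), 1.37 (0.14) and 1.02 (0.16) as the authors' deposited table gives them. The higher ones were Rgs2, Rgs1, Cxcl1, Ccl2 and Tiparp, at 1.36, 2.84, 2.56, 1.48 and 0.73 in the authors' deposited table. These lists, too, were chosen with earlier results of these data known.

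Markers of other cells and of dividing cells moved beside these genes. The counts below stand beside 16.1% of all protein-coding gene names listed, and 54.9% of all listed genes higher and 45.1% lower. Of 24 microglia and macrophage markers, 23 were listed and all 23 were higher in the authors' deposited table, with implied means that summed to 124917 in Spp1 KO and 28855 in WT; Tmem119 was the marker not in the table. Fibroblast and meningeal markers were higher in 9 and lower in 1 of 16, with sums of 106767 in Spp1 KO and 43755 in WT. Oligodendrocyte lineage markers, counted above, summed to 10697 in Spp1 KO and 27901 in WT. Olig1 was the largest part of both, at 4414 in Spp1 KO and 13482 in WT. Schwann cell markers were lower in 10 of 12, with a median log2 fold change of -2.84 and sums of 10448 in Spp1 KO and 20788 in WT; without Cadm4, which made up most of both, the sums were 598 in Spp1 KO and 4461 in WT. Neuron markers were lower in 11 of 16, with sums of 8615 in Spp1 KO and 19052 in WT. Most of both sums came from Thy1 and Stmn2, at 5253 and 2263 in Spp1 KO and 12573 and 3714 in WT. Pericyte and endothelial markers were higher in 2 and lower in 3 of 14, with sums of 50280 in Spp1 KO and 91610 in WT. Most of those sums came from the contractile genes Acta2 and Tagln, which were lower. The endothelial genes Kdr and Cdh5 were higher by 2.08 (deposited standard error 0.18) and 1.11 (0.11) in the authors' deposited table. Cspg4, which is also on the oligodendrocyte lineage list, was lower there, at -2.33 (0.14). Astrocyte markers were higher in 5 and lower in 3 of 16, with sums of 142166 in Spp1 KO and 89521 in WT. Mitosis markers were lower in 13 of 15, with sums of 9507 in Spp1 KO and 18289 in WT. In bulk cultures, fewer cells of a type and less RNA per cell cannot be told apart, and the part of these cell types and of proliferation in the values of the 20 genes was not tested.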

How the data were processed

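Total RNA from 8 samples of cultured astrocytes, 4 Spp1 KO and 4 WT, was sequenced; libraries were made by a sequencing company from column-purified RNA, per the labels' protocols. DESeq2 1.30.1, STAR 2.7, CASAVA 1.8 and the build GRCm38 appear in the submitters' processing notes, with no step assigned to any of them; the sources used here do not give the annotation or the counter. Per the file headers, the authors gave each gene a mean normalized count (a signal averaged over all samples), a log2 fold change, the standard error of that change, a Wald statistic (a score), a p-value and its adjusted form. There are 0 columns of per-sample values, so depth per sample is unknown and no test across samples was run here. All p-values printed are the authors' deposited adjusted p-values.

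From these, implied group means were worked out with equal group sizes, and 95% intervals reach 1.96 deposited standard errors to either side of the log2 fold change. In the table, 41 of the 3624 entries had no unique match in GENCODE M21, which was used for gene spans and merged exon lengths. Promoter windows came from RefSeq (GRCm38.p6). The calculation of implied means and the motif search were tested on simulated data. The name rule fixed the members, and all 20 are named with their values; from the lists around ERK signalling up to 4 genes with the smallest adjusted p were to be named, and further ones were named after their values were seen. One gene of these lists is not reported here and is left out of their counts. The members and lists were chosen with earlier results of these data known. Python 3.11.15, pandas 2.3.3 and matplotlib 3.10.9 were used.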

Additional observations from a re-analysis of the deposited data

How the results depend on the processing

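In all 4 alternatives, 76.5% to 91.7% of the remaining genes were lower in Spp1 KO, with a negative median in each. Each alternative kept part of the same 20 genes with the same values. The lean could hardly be lost this way, so these shares are a description and give no separate support. Among genes that changed by 1 or more on the log2 scale, 1 gene was higher (Nr4a3) and 11 lower. The median moved to -1.40, which follows from dropping the smaller changes. At that limit, 38.8% of all genes in the authors' deposited table were lower. Among the 17 genes whose mean normalized count reached 100, the median was -0.88 and 76.5% were lower. At that limit, 45.4% of all genes in the authors' deposited table were lower. An adjusted p of at most 0.001 left 11 lower and 3 higher, where 41.0% of all genes in the authors' deposited table were lower. Leaving out the Klf genes and the atypical Dusp genes left 13 lower and 3 higher. Ier3ip1 was also set to be left out, but it is not among the 20. Ordered by the Wald statistic in place of the fold change, Spry1 moved to place 1 from place 7 and Egr4 to place 16 from place 1 among the most lowered genes. Motif shares were nearly the same in the 250 bases before the start alone, with the core of the cyclic AMP response element in 53.3% of windows. No paired analysis was possible because the authors' deposited table has no values per sample; for the same reason leaving out single replicates was not run. Sample depth is unknown, and precision is known only through the deposited standard errors.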
